A study of Sus scrofa with 44 samples.

Results

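The 8 genes described here are 7 members and partners of activator protein 1 (AP-1), namely JUNB, JUN, JUND, FOS, FOSB, FOSL2 and ATF3, together with EGR1, another immediate early gene. They were chosen by symbol, matched to Ensembl pig gene identifiers. JUNB led to the choice, because it was listed at 0 at E70 and above 0 in every library at E95. Its levels, and those of all members in E95 against E70, are therefore given as a description, with no test. Of the 22427 genes in the expression files, 6 are members (JUNB, FOS, FOSB, FOSL2, ATF3 and EGR1). Expression of JUN and JUND was not analysed here, and for both only m6A peaks are described. The identifier taken for JUND was found by position, from peaks over the RefSeq JUND gene, since the name table gave it no symbol.

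The study used longissimus dorsi, a back muscle, from pig fetuses taken 33, 40, 50, 60, 70 and 95 days post coitus (named E33 to E95 here). Each stage has 3 input libraries of rRNA-depleted RNA, and no treatment or genotype is labelled. It also used PK15, an established pig kidney cell line, as polyA RNA and as rRNA-depleted RNA. N6-methyladenosine (m6A) was mapped with an antibody (MeRIP-seq), which gave 1 peak list per stage and per PK15 preparation and so no replicates of peaks. The labels name no breed, sex, litter or pooling. Nothing in them says that the replicates are separate animals, so p-values measure only the spread between these libraries, which may be technical.

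AP-1 is a family of dimers of basic leucine zipper proteins. FOS proteins bind DNA only with a JUN partner, while JUN proteins also pair among themselves. Many of these genes are immediate early genes, which are switched on within minutes by growth factors, calcium or stress through factors such as SRF and ELK1, without new protein synthesis. Their mRNAs are short-lived. In muscle they respond to stretch, contraction, injury and also to tissue handling. EGR1 is a zinc finger factor induced by the same signals, and ATF3 is a stress-induced zipper protein that can pair with JUN proteins.

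The m6A peaks of these genes lay mostly in coding sequence or beside the start and stop codons. The stretches below are the coding parts of such peaks that the lists shared, read from the RefSeq genome Sscrofa11.1, 5' to 3' on the strand of the gene. Capitals mark DRACH, the sequence context in which m6A is placed (A, G or T, then A or G, then A, then C, then A, C or T). They show what the peaks contain and are not mapped methylation sites. The motif was searched on the strand of the gene. A motif this short is common: 95.25% to 96.45% of all peaks in a list held at least 1 DRACH. The JUN stretch (chr6:153687344-153687610, plus strand) ends with the stop codon, codes for the basic region and leucine zipper, and lay in peaks of all 8 lists.
JUN: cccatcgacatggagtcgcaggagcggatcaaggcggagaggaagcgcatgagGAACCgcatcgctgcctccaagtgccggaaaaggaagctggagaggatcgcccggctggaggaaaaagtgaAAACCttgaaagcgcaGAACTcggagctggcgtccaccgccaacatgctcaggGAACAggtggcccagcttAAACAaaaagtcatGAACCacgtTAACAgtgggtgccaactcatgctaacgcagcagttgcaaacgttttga
The JUND stretch (chr2:59531834-59532018, plus strand) is the second block of the peak found in all 8 lists, and it ends within the coding sequence of the basic region.
JUND: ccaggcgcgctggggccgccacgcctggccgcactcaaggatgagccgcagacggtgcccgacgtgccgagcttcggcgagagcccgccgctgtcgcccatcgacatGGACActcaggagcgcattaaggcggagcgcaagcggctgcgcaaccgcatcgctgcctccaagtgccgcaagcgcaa
The EGR1 stretch (chr2:140443966-140444056, plus strand) ends with the stop codon and lay in peaks of all 8 lists.
EGR1: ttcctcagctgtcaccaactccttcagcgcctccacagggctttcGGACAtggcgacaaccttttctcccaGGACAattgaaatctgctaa
The FOS stretch (chr7:98451672-98451971, plus strand) is the end of the coding sequence, in the peak of the E95 list and of both PK15 lists.
FOS: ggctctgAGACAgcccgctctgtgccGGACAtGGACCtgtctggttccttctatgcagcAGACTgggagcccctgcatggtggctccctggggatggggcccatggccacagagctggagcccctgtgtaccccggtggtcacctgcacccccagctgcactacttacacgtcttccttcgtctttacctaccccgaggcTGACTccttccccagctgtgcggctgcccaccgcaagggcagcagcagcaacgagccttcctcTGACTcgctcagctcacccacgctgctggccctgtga
The JUNB stretch (chr2:66215567-66215637, minus strand) begins with the start codon and lay in peaks of E60, E70, E95 and both PK15 lists. The muscle peaks there are listed under a neighbouring gene on the opposite strand.
JUNB: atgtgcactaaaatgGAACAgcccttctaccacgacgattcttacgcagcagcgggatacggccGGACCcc
JUN had 7 DRACH in 267 bases, JUND 1 in 185, EGR1 2 in 91, FOS 6 in 300 and JUNB 2 in 71. The JUN and JUND stretches overlap over 89 aligned bases of the basic region, 74 of them identical (83.1%), with 1 DRACH in each gene and 0 at the same place.

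Each expression file sums to 1000000 TPM (a level scaled per transcript length), so the depth of a library is unknown. A gene without a symbol held 37.4% to 72.4% of the TPM, and E40 replicate 2 and E50 replicate 3 stood apart with 17.3% and 14.4% of their TPM in a second gene. Comparisons are therefore given as deposited and after median-ratio scaling. Scaling moves the median log2 difference of E95 against E33 over the 13334 tested genes from -1.02 to 0.00. Levels of libraries and stages are as deposited unless called scaled. All 8 myofibre markers were above 0 in every stage, and the 5 kidney epithelial markers matched summed to 0.0556 to 8.34 TPM in the muscle libraries. In whole tissue, fewer cells of a type and less RNA per cell cannot be told apart.

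Of the FOS family, FOS (ENSSSCG00000002383), the founding partner of JUN, was low at the 3 early stages and high at E60 and E95. Its E33 libraries held 15.7, 22.4 and 21.6 TPM. It was at 9.97, 9.49 and 29.96 at E40 and at 23.3, 19.5 and 9.52 at E50. It was at 62.5, 117 and 74.3 TPM at E60, at 28.5, 61.4 and 40.0 at E70 and at 82.0, 81.7 and 103 at E95. Every library from E60 and E95 was above every library from E33 to E50, and E70 lay between them, with 1 library (28.5 TPM) below the highest of E40. By stage mean the order was E95 (89.0 TPM ± 12.4, SD, n = 3), E60 (84.5 ± 28.5), E70 (43.3 ± 16.7), E33 (19.9 ± 3.66), E50 (17.4 ± 7.10) and E40 (16.5 ± 11.7). As deposited, the ranges of E95 and E60 overlapped, as did those of E33, E50 and E40. Scaling put every E95 library (118 to 142 scaled TPM) above those of E60 (52.3 to 88.9), and E60 then overlapped E70 (29.3 to 56.2). In scaled TPM, E33 lay below E50, and E40 overlapped both.

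FOSB (ENSSSCG00000031616), a close relative of FOS, had the lowest overall median of the members above 0 in every library. It lay between 3.69 and 6.16 TPM at E33, between 0.802 and 2.07 at E40, between 0.403 and 2.18 at E50 and between 3.68 and 6.14 at E60. At E70 it was at 1.63, 4.98 and 1.47 TPM, and at E95 at 0.956, 4.48 and 11.6 TPM. The E95 libraries thus held the highest FOSB value of all 18 and also a value below all those of E33, E60 and E70. FOSL2 (ENSSSCG00000032527), which encodes FRA2, lay between 15.9 and 25.3 TPM at E33, 10.7 and 17.97 at E40, 3.33 and 13.3 at E50, 18.1 and 18.8 at E60, 10.2 and 20.2 at E70, and 11.02 and 18.7 at E95. Its lowest value as deposited was that of E50 replicate 3, a library with 14.4% of its TPM in a second gene. After scaling that library was at 10.9 scaled TPM, and the lowest was E40 replicate 1 (7.68).

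JUNB (ENSSSCG00000013735), a JUN protein known for weaker activation than JUN at single sites, was listed at 0 in 14 of 18 libraries. It was at 0 in the 3 libraries of each of E33, E40, E50 and E70 and in E60 replicates 1 and 3. It was at 23.4 TPM in E60 replicate 2 and at 21.2, 33.4 and 27.0 TPM in the E95 libraries. The gene was either at 0 or above 20 TPM, with no value between. Of 4871 genes that reached 20 TPM in some library, 508 (10.4%) were listed at 0 in at least 1 other, and 114 (2.34%) were at 0 in at least 14 of 18. An exact 0 in files without counts can be a failed estimate, so no fold is given against it.

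ATF3 (ENSSSCG00000015595) was at 3.00, 4.66 and 6.95 TPM at E33 and at 6.52, 3.54 and 8.97 at E40. At E50 it was at 22.01, 12.6 and 4.44 TPM, and at E60 at 19.1, 58.3 and 16.7 TPM. It was at 17.4, 23.6 and 16.4 TPM at E70 and at 16.1, 14.6 and 15.1 at E95. The 3 late stages lay above E33 and E40 in every library. By mean as deposited, E60 (31.4 TPM ± 23.4) was followed by E70 (19.2 ± 3.92), E95 (15.3 ± 0.80), E50 (13.01 ± 8.79), E40 (6.34 ± 2.72) and E33 (4.87 ± 1.98) (SD, n = 3 each), and the lead of E60 came from replicate 2. After scaling the order was E60 (mean 24.3 scaled TPM), E95 (22.5), E70 (18.7), E50 (15.8), E40 (5.96) and E33 (2.81).

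EGR1 (ENSSSCG00000014336) was at 7.60, 10.04 and 9.93 TPM at E33, at 5.88, 1.91 and 5.63 at E40 and at 3.73, 5.48 and 1.504 at E50. It was at 8.64, 13.3 and 7.87 TPM at E60, at 5.69, 5.81 and 5.47 at E70 and at 6.87, 6.90 and 8.91 at E95. As deposited, E33 and E60 lay above every library of E40, E50 and E70. After scaling both still lay above E40 and E50, but E33 (4.96 to 6.31) overlapped E70 (5.32 to 5.86). The highest stage was then E95 (10.2 to 12.01 scaled TPM).

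**Figure D1:**
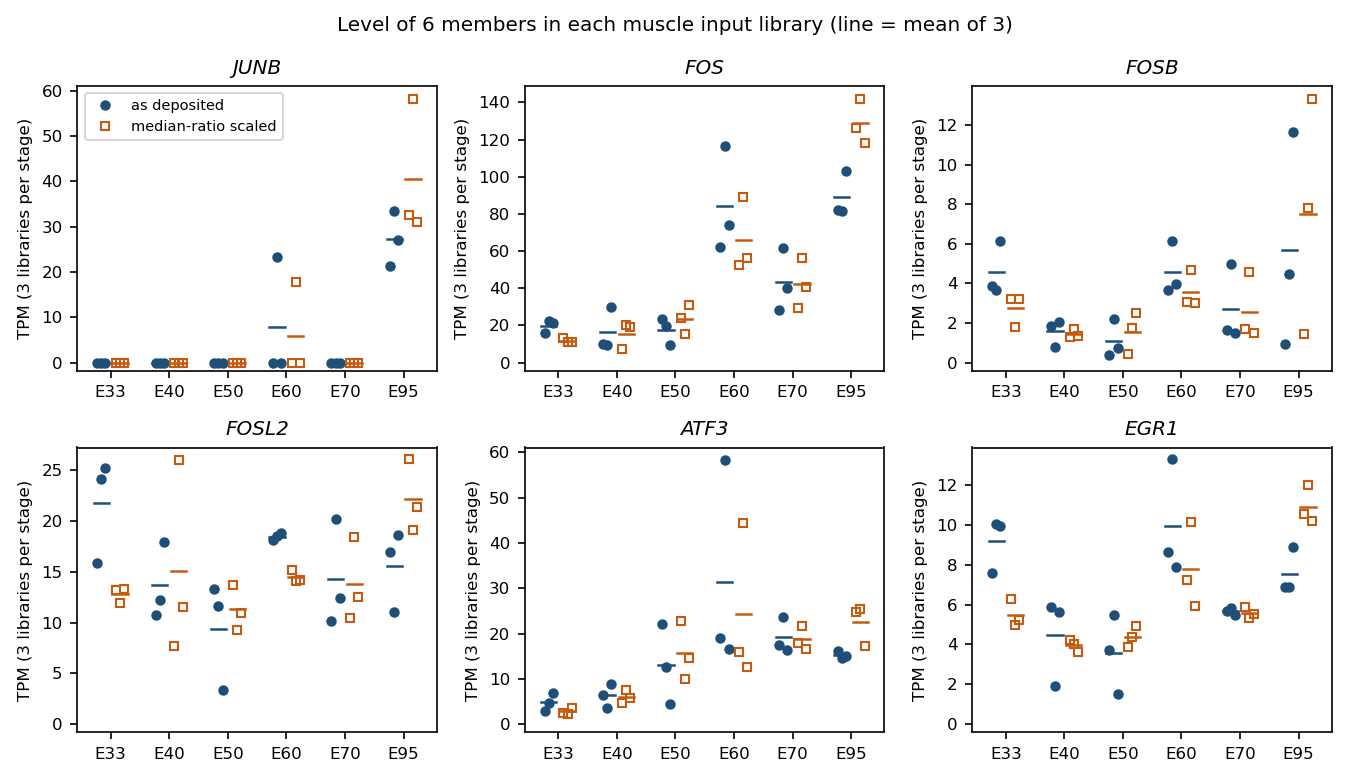
TPM of 6 genes in each of the 3 muscle input libraries per stage, as deposited (filled circles) and after median-ratio scaling (open squares), with short lines at the stage means. JUNB leaves 0 only in E60 replicate 2 (23.4 TPM) and at E95 (21.2 to 33.4 TPM), and FOS is high at E60 and E95.

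The first and the last stage were compared to ask how the genes changed over the whole period. FOS rose from 19.9 TPM ± 3.66 at E33 to 89.0 ± 12.4 at E95 (SD, n = 3 each), and ATF3 from 4.87 ± 1.98 to 15.3 ± 0.80. The log2 difference of TPM + 1 was 2.11 for FOS (SE 0.47, limma adjusted p 0.00191) and 1.53 for ATF3 (SE 0.51, limma adjusted p 0.0212). After scaling it was 3.34 (SE 0.35, limma adjusted p 2.20e-06) and 2.62 (SE 0.37, limma adjusted p 4.55e-05). These 2 of the 5 genes tested were called as deposited, both higher, where 48.5% of all genes were called, 2.64% higher and 45.8% lower. After scaling 3 of 5 were called, all higher, where 46.7% of all genes were called and 23.7% higher. The E95 libraries are those in which JUNB stood out, so this comparison is not independent of the choice of genes.

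The third gene was EGR1. It had a log2 difference of -0.25 as deposited (SE 0.39, limma adjusted p 0.584), but 0.88 once scaled (SE 0.14, limma adjusted p 0.000143), so its direction depended on the scaling. FOSB (-0.09 as deposited, 0.88 after scaling, limma adjusted p 0.889 and 0.183) and FOSL2 (-0.46 and 0.74, limma adjusted p 0.360 and 0.0618) were not called. Without E95 replicate 1, the library with 0.956 TPM, FOSB was called after scaling (1.60, limma adjusted p 0.00520). The call of ATF3 as deposited was lost without E33 replicate 1, E33 replicate 2, E95 replicate 1 or E95 replicate 2, with limma adjusted p between 0.0563 and 0.0661. FOS was called in all 22 alternatives, with limma adjusted p from 2.20e-06 to 0.00933. The libraries of E33 and E95 did not overlap for FOS and ATF3 as deposited (higher in 4.51% of all genes), and for FOS, ATF3, EGR1 and FOSL2 after scaling (28.0%).

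**Figure D2:**
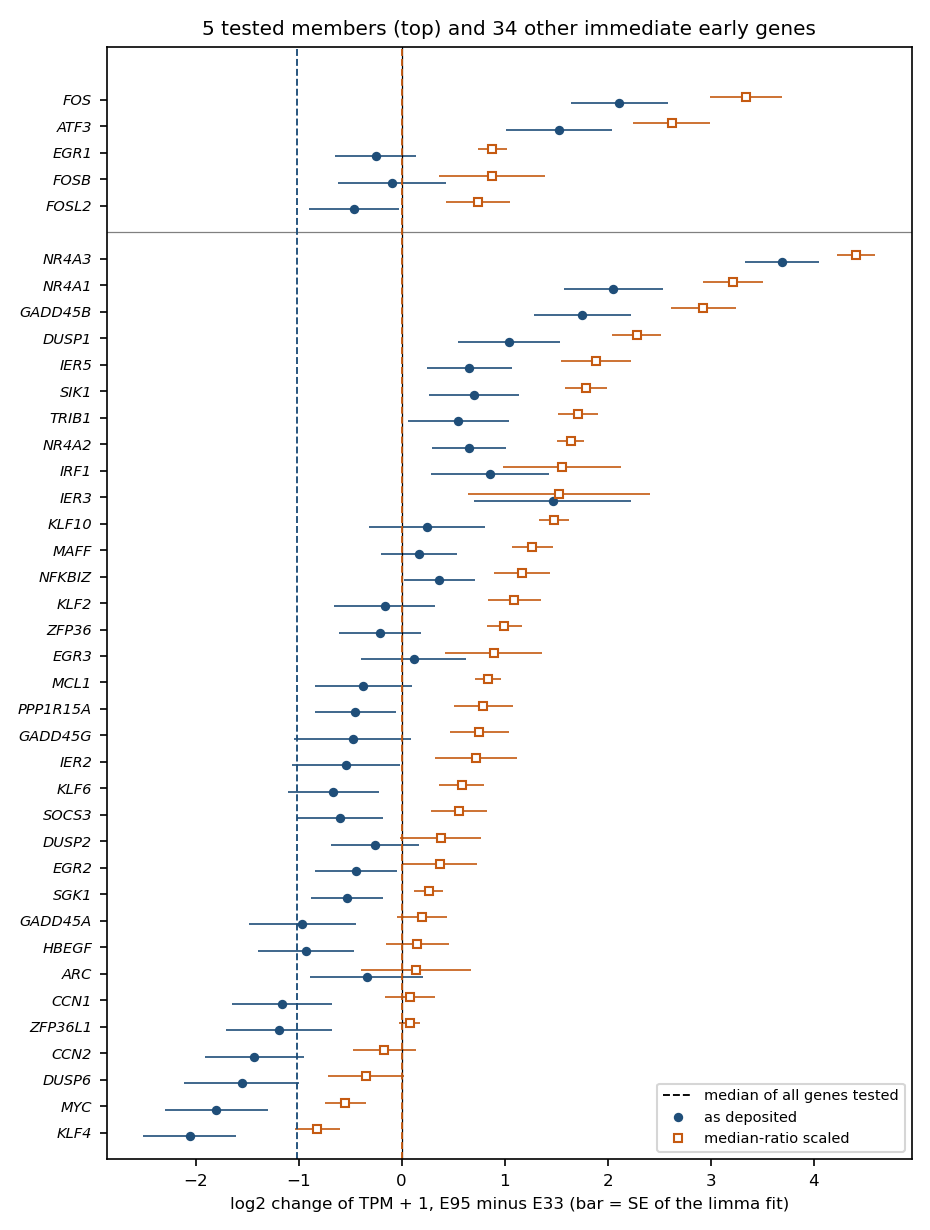
Log2 change of TPM + 1 from E33 to E95 for the 5 tested members (top) and 34 other immediate early genes, as deposited (circles) and after scaling (squares), with the SE of the fit and dashed lines at the median of all genes tested (-1.02 and 0.00). FOS (2.11 and 3.34) and ATF3 (1.53 and 2.62) lie right of 0 both ways, while EGR1 changes side.

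Markers of cell types were also compared between E33 and E95. Of all genes, 2.64% were called higher and 45.8% lower as deposited, and 23.7% and 23.0% after scaling. The 7 endothelial markers matched summed to 31.7 to 66.1 TPM at E33 and 64.3 to 88.0 at E95, and after scaling to 26.3 to 34.7 and 98.8 to 114. All 7 were called higher after scaling and 2 as deposited, and 0 of them were at 0 in all libraries of a stage. The 8 macrophage and leukocyte markers summed to 43.0 to 78.6 TPM at E33 and 28.2 to 46.5 at E95 (32.8 to 41.2 and 44.6 to 71.5 after scaling), with 4 of 6 tested called higher after scaling. The 8 myofibre markers summed to 3946 to 7489 TPM at E33 and to 12665 to 17825 at E95. Of them 6 were called higher and 2 lower as deposited, and 6 higher and 1 lower after scaling. The lower ones were MYH3, both ways (mean 3781 TPM at E33 and 729 at E95), and MYOG as deposited (210 and 81.2). The 6 neuronal and Schwann markers matched summed to 136 to 276 TPM at E33 and 14.9 to 48.6 at E95, and of 5 tested 4 were called lower and 1 higher as deposited. The 6 fibroblast markers summed to 3411 to 5742 TPM and 3290 to 4881, with 2 called lower as deposited and 3 higher and 2 lower after scaling. The 6 erythroid markers matched summed to 291 to 887 TPM and 397 to 490, with 2 called lower as deposited and 1 higher and 2 lower after scaling. The part of these cells in the changes of FOS and ATF3 was not tested.

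Each stage was also set against the one before it. From E50 to E60, FOS had a log2 difference of 2.25 (SE 0.47, limma adjusted p 0.0872, unadjusted p 0.000105), EGR1 of 1.33, FOSB of 1.47, FOSL2 of 1.08 and ATF3 of 1.21, and 0 of the 5 were called as deposited (0.06% of all genes were). By unadjusted p, all 5 were under 0.05, as were 14.4% of all genes, and the median log2 difference of all genes was 0.63. That median was 0.00 after scaling, where FOSB was at 0.92 (SE 0.52), FOSL2 at 0.35 (SE 0.31) and ATF3 at 0.46 (SE 0.37). After scaling EGR1 was called (0.68, SE 0.14, limma adjusted p 0.0408; 0.817% of all genes), with 1.45 for FOS (SE 0.35, limma adjusted p 0.0753). The EGR1 call was lost without E50 replicate 1, 2 or 3 and without E60 replicate 1 or 2, and with the replicate block. All 3 libraries of E60 lay above all 3 of E50 for FOS, FOSB, FOSL2 and EGR1 both ways, against 24.9% of all genes as deposited and 7.85% after scaling. E50 replicate 3 is the library with 72.4% and 14.4% of its TPM in its leading genes, and without it EGR1 had a log2 difference of 0.95 as deposited and 0.75 after scaling (limma adjusted p 1.00 and 0.0610).

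From E33 to E40, 0 of 5 were called as deposited or after scaling (4.87% and 20.9% of all genes). EGR1 had a log2 difference of -0.99 (limma adjusted p 0.133) and FOSB of -1.13 (limma adjusted p 0.182), and both had all E40 libraries below those of E33, as 22.6% of all genes did. ATF3 had all E40 libraries above those of E33 after scaling, as 18.7% of all genes did. At an unadjusted p under 0.05 these 2 of 5 passed as deposited, where 25.9% of all genes passed and the median of all genes was -0.59. From E40 to E50 (0.0075% of all genes as deposited, 1.52% after scaling) and from E60 to E70 (0.0825% and 1.73%) none of the 5 was called. At an unadjusted p under 0.05, 0 passed as deposited in either comparison (2.75% and 2.89% of all genes). After scaling ATF3 had all E50 libraries above those of E40, as 8.45% of all genes did. From E60 to E70, FOS went from 84.5 to 43.3 TPM, a log2 difference of -0.97 (SE 0.47), and EGR1 from 9.94 to 5.66 TPM, a log2 difference of -0.68 (SE 0.39). Both had all E70 libraries below those of E60, as 38.0% of all genes did, and after scaling only EGR1 of the 5 did (9.74%).

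For E95 against E70, the comparison behind the choice of JUNB, only values are given. FOS and EGR1, like JUNB, whose pattern the choice fixed, had all 3 E95 libraries above all 3 of E70 as deposited and after scaling. Of all genes, 2.57% and 16.5% did, from which nothing is read here. FOSL2 did so after scaling (19.2 to 26.1 against 10.5 to 18.5 scaled TPM). FOS was at 28.5 to 61.4 TPM and at 81.7 to 103 TPM, and EGR1 at 5.47 to 5.81 and at 6.87 to 8.91. ATF3 was lower at E95 as deposited (14.6 to 16.1 against 16.4 to 23.6 TPM, with 44.0% of all genes lower in this way) and overlapped after scaling.

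E60 replicate 2, the library outside E95 with JUNB above 0, was looked at further after its values were seen. It was the highest of the 3 E60 libraries for JUNB, FOS, FOSB, ATF3 and EGR1, both as deposited and after scaling, and not for FOSL2. After scaling it held 3.11 times the mean of the other two for ATF3, 1.64 times for FOS and 1.54 times for FOSB and for EGR1, and 0.96 times for FOSL2. Of 34 other immediate early genes, 26 were also highest there (76.5%), against 37.7% of all genes as deposited and 33.3% after scaling. NR4A1 (2.34 times), IER2 (2.13 times) and CCN2 (1.96 times) were furthest above the other two. As deposited, the endothelial sum of that library was 97.6 TPM against 71.3 and 91.3 in replicates 1 and 3. In the same order, the leukocyte sum was 63.9 against 48.7 and 58.1, and the erythroid sum 1044 against 2043 and 1566. The neuronal and Schwann sum was 29.7 against 22.6 and 19.9, and the fibroblast sum 5958 against 7505 and 4193. The myofibre sum was 19927 against 12259 and 20026 (15187 against 10275 and 15112 after scaling). Their part in the difference was not tested.

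**Figure D3:**
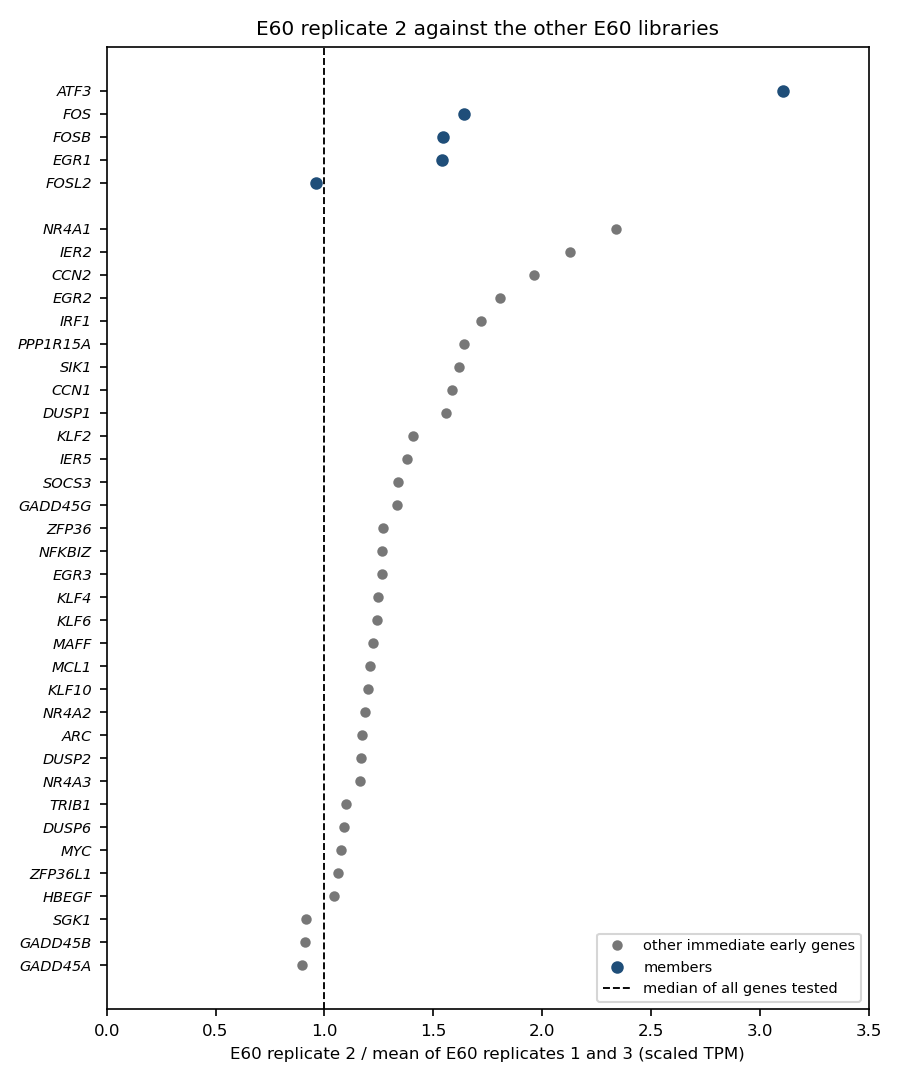
Scaled TPM of E60 replicate 2 divided by the mean of E60 replicates 1 and 3, for 5 members (top) and the other immediate early genes, with a dashed line at the median of all genes tested (1.00). ATF3 (3.11) and NR4A1 (2.34) lie furthest right, and JUNB and IER3 are left out because replicates 1 and 3 were listed at 0.

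The other immediate early genes were taken from a list of 38, of which 35 were matched by symbol and 34 tested. From E33 to E95, 7 were called as deposited, 3 higher and 4 lower, and 20 after scaling, 18 higher and 2 lower. Of all genes, 48.5% were called as deposited (2.64% higher, 45.8% lower) and 46.7% after scaling (23.7% higher, 23.0% lower). The list's median log2 difference was -0.30 as deposited and 0.82 after scaling, against -1.02 and 0.00 for all genes. The 3 higher were the nuclear receptors NR4A3 and NR4A1 and the stress gene GADD45B. NR4A3 went from 0.469 TPM ± 0.241 to 18.6 ± 6.95 (SD, n = 3 each), a log2 difference of 3.70 (SE 0.36, limma adjusted p 6.54e-07). NR4A1 went from 8.08 TPM ± 3.41 to 37.3 ± 16.98, a log2 difference of 2.06 (limma adjusted p 0.00290), and GADD45B had a log2 difference of 1.76 (limma adjusted p 0.00695). The largest falls were those of KLF4 (-2.06), MYC (-1.80) and DUSP6, a phosphatase of the MAP kinase pathway (-1.55), and after scaling they were -0.82, -0.54 and -0.35, the last not called (limma adjusted p 0.467).

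The comparison of E95 with E70 led to the choice of JUNB, so for these related genes too it is not independent of that choice. From E70 to E95, 1 of the 34 was called as deposited, NR4A3 (2.14, limma adjusted p 0.0108), where 0.285% of all genes were called. Without E70 replicate 1, E70 replicate 3 or E95 replicate 3 there were 0 calls. After scaling 14 were called, all higher, where 13.6% of all genes were called and 6.84% higher. The list's median was 0.57 against 0.00 for all genes. The largest were NR4A3 (2.68), GADD45B (2.33) and NR4A1 (1.69). From E33 to E40, IER2 fell from 97.1 TPM ± 36.5 to 23.0 ± 9.33, a log2 difference of -2.05 (limma adjusted p 0.0263). It was the only call among the 34 as deposited, where 4.87% of all genes were called. Without E33 replicate 2, E33 replicate 3 or E40 replicate 2 the list had 0 calls, and without E40 replicate 3 it had 2. Scaling gave 6 calls, 3 in each direction, where 20.9% of all genes were called. Between E50 and E60, 0 of the list were called as deposited (0.06% of all genes). After scaling NR4A1 (1.54) and NR4A3 (0.98) were called (0.817% of all genes). At an unadjusted p under 0.05, 15 of 34 passed as deposited (14.4% of all genes) and 9 after scaling (11.9%).

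Other zipper genes that pair with AP-1 or share its sites numbered 23, with 17 matched and 15 tested. From E33 to E95, 1 was called as deposited, CREB5, which fell from 8.49 TPM ± 0.92 to 1.64 ± 0.70 (log2 change -1.88, limma adjusted p 0.00121). After scaling 10 were called, 9 higher, led by CEBPB (2.11), CEBPD (1.83) and MAFG (1.74), and CREB5 was lower (-0.90). The shares of all genes called were 48.5% as deposited and 46.7% after scaling, with 23.7% higher after scaling. The median of this list was -0.58 as deposited and 0.52 after scaling, against -1.02 and 0.00 for all genes. FOSL1, the remaining FOS family gene, had a log2 difference of 0.52 after scaling (limma adjusted p 0.00822) and lay at 8.65 TPM ± 2.24 at E33 and 5.39 ± 1.23 at E95 as deposited.

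Of 17 genes upstream of the immediate early response, 16 were matched and tested. From E33 to E95, 7 of 16 were called lower as deposited and 0 higher, where 45.8% of all genes were lower. After scaling 5 rose and 3 fell, against 23.7% and 23.0% of all genes, so neither count stands far from the background. MAPK7, which encodes the kinase ERK5, fell both ways (-2.54, limma adjusted p 0.000342, and -1.33 after scaling), from 56.1 TPM ± 15.6 to 8.58 ± 1.14 (SD, n = 3 each). MRTFA, a cofactor of SRF, also fell both ways (-1.45 and -0.30). The largest rise after scaling was that of RPS6KA3, which encodes the kinase RSK2 (1.51, limma adjusted p 1.90e-07; 0.47 as deposited).

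Of 18 genes known as AP-1 targets, 17 were matched and 13 tested. As deposited 7 were called lower and 0 higher, with a median of -1.04 against -1.02 for all genes, and after scaling 2 in each direction, the median being 0.05. The largest fall was that of VIM, which encodes vimentin (-2.88, limma adjusted p 7.91e-05, and -1.61 after scaling), followed by SPP1 (-1.94) and CCND1 (-1.76) as deposited. TGFB1 had the largest rise after scaling (1.48, limma adjusted p 1.13e-07). Of 10 heat shock genes tested, 4 were lower as deposited, near the 45.8% of all genes, led by HSPA5 (-1.97), HSP90AB1 (-1.69) and DNAJA1 (-1.55). After scaling 2 were higher (HSPB1 at 1.396 and DNAJB1 at 1.05) and 2 lower, against 23.7% and 23.0% of all genes.

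The genes whose levels ranked most like JUNB over the 18 libraries after scaling were PRR33 (Spearman rho 0.88), PHF1 (0.78), HPDL (0.77), SUN2 (0.73) and FOS (0.73). PRR33 was listed at 0 in 15 libraries, HPDL in 11 and PHF1 in 10, and JUNB in 14. Those most like FOS were FABP5, IGFBP7 and SEMA4D (0.96 each), NR4A1 (0.95) and BAG3 (0.94), all above 0 in every library. The libraries share their stages, and these values are a description over 18 points.

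The m6A peaks of the genes were asked about because the series maps m6A through development. Fold enrichment is the authors' own value per peak. Of the 8 genes, 4 (JUN, JUND, EGR1 and FOSL2) had a peak under their own name at every stage, against 18.3% of the genes tested and 28.6% of the 35 other immediate early genes matched. The lists of E33, E40, E50 and E60 held these 4 genes, that of E70 also ATF3 and that of E95 also FOS. A peak was listed for 34.8%, 22.5%, 30.4%, 31.4%, 34.4% and 33.7% of the genes tested from the first to the last stage. PK15 polyA had peaks for all 8 (57.1% of the genes tested) and PK15 rRNA-depleted for 6 (37.1%), without FOSB and ATF3.

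JUN (RefSeq chromosome 6, 153686425 to 153687635, a single exon) had 3 peaks at every stage. The peak over the stop codon had folds of 4.69, 5.88, 6.68, 5.01, 5.67 and 7.15 from E33 to E95. The middle peak, in the first part of the coding sequence, lay between 4.93 and 7.44, and the first, which lies upstream of the RefSeq start of the gene, between 3.71 and 5.72. The PK15 polyA list joined the first and middle peaks (14.6) and gave 16.9 for the last, against a list median of 7.41. JUND (chromosome 2, 59530991 to 59532846) had 1 peak per list, at 59531540 to 59532018 in the muscle lists of E33 to E70 and from 59531570 at E95, with folds between 4.05 and 5.62. It was at 23.2 in PK15 polyA and 6.81 in PK15 rRNA-depleted.

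EGR1 (chromosome 2, 140440829 to 140445302) had a peak over its stop codon in every list. Its folds were 5.09, 10.6, 19.6, 7.59, 8.70 and 7.88 from the first to the last stage, with list medians from 3.51 to 4.88. The highest fold stood at the stage with the lowest mean level of EGR1 (3.57 TPM ± 1.99 at E50) and the next highest at E40 (4.47 ± 2.22). After scaling the lowest mean was that of E40 (3.95 scaled TPM, against 4.39 at E50), so the order held only as deposited. The peaks differed in length: that of E50 spans 300 bases, that of E60 1287 and those of E70 and E95 928 each. With 1 list per stage the difference has no replicate check.

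FOSL2 (chromosome 3, 110820403 to 110842903, minus strand) had its peaks mainly in the 3' UTR. A peak with an end between 110824305 and 110824454 was found at every stage, with folds of 5.50, 4.75, 6.44, 8.67, 14.6 and 5.07 from E33 to E95. Another 3' UTR peak, closer to the stop codon, was listed at E33 (6.74), E60 (9.63), E70 (5.78) and E95 (4.09). In PK15 both were part of 1 long peak (fold 21.6 in the polyA list and 8.54 in the other). Consecutive stages shared at least 1 base of a peak in 5 of 5 pairs for JUN, JUND, EGR1 and FOSL2, and at least 50% of the shorter peak in as many.

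The remaining genes had few peaks. FOS (chromosome 7, 98449508 to 98451971) had peaks in muscle only in the E95 list, a peak over the stop codon with a fold of 4.16 and another with 1.88, both under the list median of 4.42, and none in the E60 list although FOS averaged 84.5 TPM there. ATF3 (chromosome 9, 130772259 to 130829678, minus strand) had 1 at E70 (4.52), in coding sequence, and 1 over its stop codon in PK15 polyA, above the median fold of that list. FOSB (chromosome 6, 51836780 to 51844531) had 1, at its stop codon in PK15 polyA (10.2). DRACH was denser inside the muscle peaks than in the rest of the exons for FOSL2 (2.70 against 1.48 per 100 bases), JUN (1.98 against 1.65), JUND (1.47 against 0.94) and EGR1 (1.52 against 1.23). It was nearly equal for ATF3 (1.67 against 1.63) and lower for FOS (1.74 against 1.92).

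**Figure D4:**
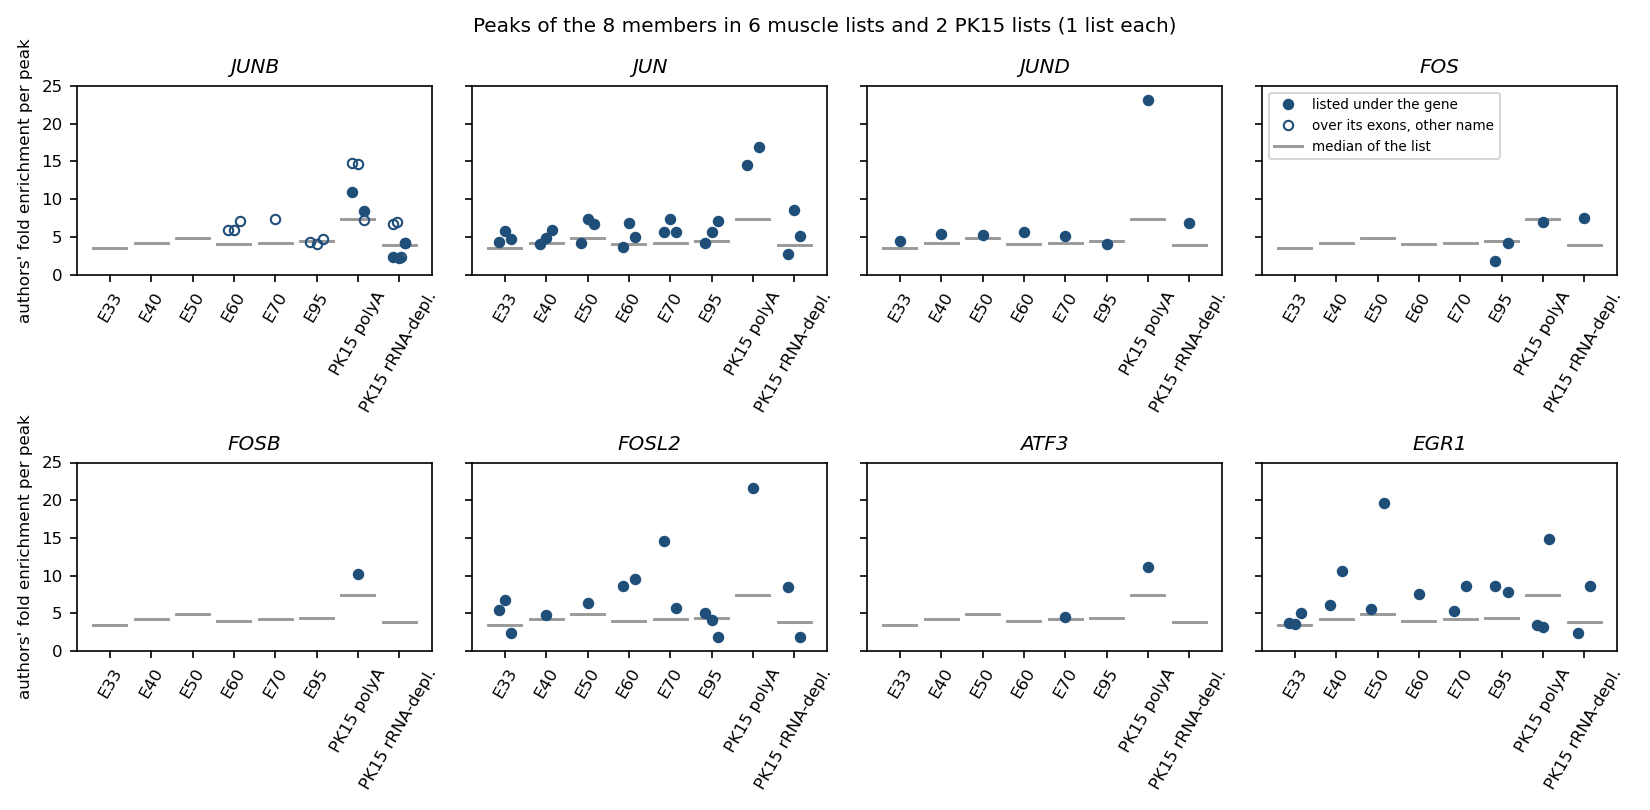
Fold enrichment of each peak of the 8 genes in the 6 muscle lists and both PK15 lists, with grey lines at the median of each list; filled points are listed under the gene and open points lie over its exons under another name. EGR1 reaches 19.6 at E50, FOSL2 14.6 at E70 and JUND 23.2 in PK15 polyA, and JUNB has only open points in muscle.

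JUNB (chromosome 2, 66214086 to 66219435, minus strand, 1 exon) had no peak under its own name in the muscle lists. Peaks nevertheless lay over its exon at E60, E70 and E95, on the opposite strand, under the names of its neighbours PRDX2 (66207829 to 66211474) and HOOK2 (66227562 to 66239671), an antioxidant enzyme and a microtubule linker gene. At E60 a peak over the JUNB start codon (66215537 to 66215687) had a fold of 7.16, and those near its stop codon (66214457 to 66214607 under PRDX2 and 66214451 to 66214601 under HOOK2) had 5.96 each. At E70 there was 1, over the start codon (66215567 to 66215687, fold 7.38). At E95 the peak over the start codon had 4.70, and those past the stop codon had 4.36 and 4.11. E33, E40 and E50 had 0 peaks there.

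None of the muscle peaks listed under PRDX2 or HOOK2 lay over the RefSeq exons of PRDX2 or HOOK2, and all of them lay over the JUNB exon. Of muscle peaks with a RefSeq symbol, 1.82% (E40) to 2.33% (E95) per list lay off the exons of their own gene and over an exon on the other strand. Both PK15 lists also held JUNB peaks under its own name. The polyA list had 1 over the stop codon (66214594 to 66214803, fold 10.9) and 1 over the start codon (66215160 to 66215637, fold 8.41). The rRNA-depleted list had 1 over the start codon (66215488 to 66215637, fold 4.14) and 2 within the coding sequence that overlapped no muscle peak (2.33 and 2.27). Peaks under PRDX2 and HOOK2 also lay over the JUNB stop codon in both PK15 lists. Their folds were 14.7 and 14.8 in polyA and 6.95 and 6.72 in rRNA-depleted. PRDX2 peaks over the start codon had 7.28 and 4.22, and another within the coding sequence had 2.34 in rRNA-depleted. In the E60, E70 and E95 peaks over the start codon DRACH occurred 5, 4 and 7 times on the JUNB strand and 1, 1 and 2 times on the strand listed. JUNB itself was listed at 0 TPM in all 3 libraries of E70. PRDX2 was at 30.6 to 39.2 TPM at E70 and 24.7 to 29.5 at E95, and HOOK2 at 1.16 to 2.89 TPM over both stages. Which gene the reads of these peaks came from was not tested.

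**Figure D5:**
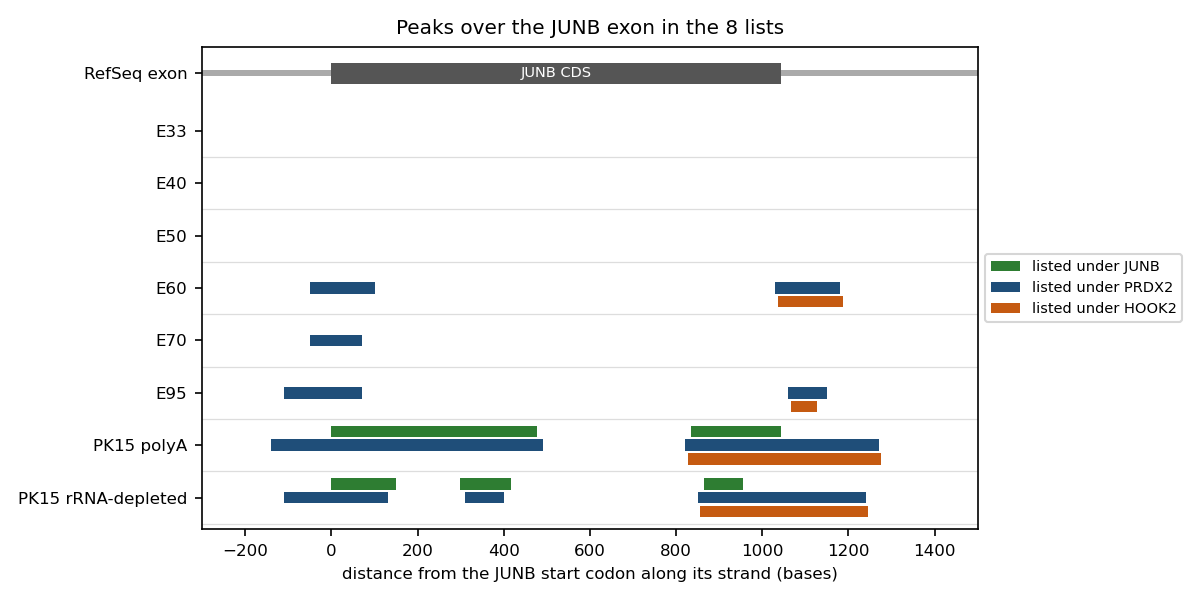
Peaks over the JUNB exon in the 8 lists, as distance from the JUNB start codon along its strand, coloured by the gene they are listed under (the RefSeq exon runs past both edges of the plot). The muscle peaks at E60, E70 and E95 lie at the start codon, where both PK15 lists also have a peak named JUNB, and for E60 and E95 at or past the stop codon.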

How the data were processed

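Expression was measured in 18 muscle input libraries and m6A peaks in 8 lists. The deposited expression values are TPM per gene, and each file sums to 1000000, so depth is unknown. How far depth limits precision, beside the number of libraries, cannot be told. The submitters' processing notes name Trimmomatic, HISAT2 and the build Sscrofa11.1. The quantifier, the peak caller, its threshold and any pooling are not given in the sources used here. Per the file headers, each deposited peak has a p-value and a fold enrichment, a ratio, which were used as the authors gave them. Folds of different lists were set side by side as a description, with no test between lists.

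Tests used limma 3.58.1 (R 4.3.3) on log2(TPM + 1), over the 13334 genes averaging 1 TPM or more, with 1 mean per stage, all 18 libraries, a trend in eBayes and Benjamini-Hochberg adjustment at 0.05. A fold change on this scale understates that of low genes. The same fit was run after median-ratio scaling over 14215 genes. Python 3.11.15 with pysam 0.24.0 read peaks and the RefSeq genome. The fit was tested on simulated data. TPM took no count test.

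All members were named, with at most 3 called genes of largest change per direction, list and comparison, and the 5 genes ranked most like JUNB and FOS. FOSL1 and the genes named for E60 replicate 2 were chosen after their values were seen. The members and lists were chosen with earlier results of these data known. The design foresaw 7 tested members. Since JUN and JUND expression was not analysed here, 5 were tested. Alternatives were other scalings, pseudocounts, filters, libraries and a replicate block. A result of the upstream list is not reported here.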

Additional observations from a re-analysis of the deposited data

How the results depend on the processing

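The direction and call of FOS in E95 against E33 held in all 22 alternatives. Scaling combined with a left-out library or with the replicate block was chosen after seeing the data. EGR1 in E95 against E33 turned from -0.25 to 0.88 with median-ratio scaling, to 0.79 with quantile normalization and to 0.88 with scaling and the replicate block, and to between 0.82 and 0.97 with scaling and each library left out in turn (0.85, 0.90 and 0.92 among them). FOSB turned to 1.60 with scaling and without E95 replicate 1. Of the 5 members, 2 were called in E95 against E33 (1 to 2 with each library left out, 3 to 4 after scaling). In E60 against E50, where 0 were called, there was 1 with scaling, 1 with quantile normalization and 2 after leaving the 2 leading genes out of the TPM total, and 0 to 1 after scaling with each library left out. That rescaling gave 1, lower, in E40 against E33 and 1, lower, in E70 against E60. Of the other immediate early genes, 1 was called in E40 against E33. Scaling gave 6, quantile normalization 6, no filter 2, a filter of 0.1 TPM 2, the compared libraries alone 0, scaling with block 6, rescaling 8 and leaving out both outlying libraries 5, and left-out libraries gave 0 to 2 as deposited and 2 to 5 after scaling. In E95 against E33, where 7 were called, these were 20 with scaling, 19 with quantile normalization, 13 with the compared libraries alone, 18 with scaling and block, 18 with rescaling and 18 without the outlying libraries, and 5 to 8 as deposited and 16 to 18 (17 in 4 cases) after scaling with each library left out. In E95 against E70, where 1 was called, these were 14, 9, 4, 13, 7 and 4 in the same order, 0 with a pseudocount of 0.1, and 0 to 1 and 6 to 11 with each library left out. At E95, 3 members had a peak at or above the list's median fold, against 5 with any peak. The cause of these differences was not tested. Replicate numbers did not pair the libraries: 1 of 45 same-numbered pairs had a correlation of deviations over 0.1 (median 0.0172). With the replicate block 2 members and 7 other immediate early genes were called in E95 against E33, 1 of the latter in E40 against E33 and 1 in E95 against E70, and scaling with block left 3 members in E95 against E33 and 0 in E60 against E50. Depth is unknown, and values listed at 0 have no bound.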
